A study of Arabidopsis thaliana with 4 samples.

Results

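AT5G55450 and AT1G48750 are a pair of Arabidopsis thaliana genes of the family of small, cysteine-rich proteins that holds the lipid transfer proteins and the 2S seed storage albumins. They are 2 of the 13355 genes with a probe set of their own among the annotated probe sets, and each is read by 1 probe set. Both were chosen on these arrays: AT5G55450 because its signal was higher in fnr1 in both ecotypes, and AT1G48750 because its signal was higher in Wassilewskija. The genotype difference of AT5G55450 and the ecotype difference of AT1G48750 are therefore given as descriptions with no test. The ecotype difference of AT5G55450 and the genotype difference of AT1G48750 were not used in the choice and were tested.

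Lipid transfer proteins are secreted proteins whose conserved cysteines form disulfide bridges around a cavity that binds fatty acids and other lipids. Members of the family are known for a part in building the cuticle, in defence against pathogens and, in the case of DIR1, in the long-distance signal of systemic acquired resistance, while the 2S albumins are nitrogen stores of seeds. AT5G55450 is known from an activation-tagged Arabidopsis line that resists a trichothecene, a fungal toxin of protein synthesis, and it lies in the group of DIR1, type IV. AT1G48750 is a small lipid transfer protein of type II.

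The 4 arrays each stood for 1 group: an fnr1 mutant in Ws (Wassilewskija), an fnr1 mutant in Columbia, wild type Ws and wild type Columbia. Ws and Columbia are natural accessions, called ecotypes here, and FNR1 encodes an enzyme of leaf chloroplasts, a ferredoxin-NADP+ oxidoreductase, which reduces NADP+ with electrons from ferredoxin. All plants were 31 days old, had grown on peat-based soil in 8 h of light and 16 h of dark at 21 °C, and were sampled as above-ground tissue 4 h into the light. The labels do not name the fnr1 alleles, and they do not say how many plants an array holds. No probe set was listed for FNR1, and its transcript was not analysed here.

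The median signal was 27.5 on the fnr1 Ws array and 27.7 on the fnr1 Columbia array, against 28.9 for wild type Ws and 22.1 for wild type Columbia. Each array was therefore multiplied by a factor of 0.917 to 1.2 that brought all medians together, and differences are on the log2 scale of these scaled signals after adding 5.78, which makes the change of dim probe sets look smaller. The leaf marker RCA, the activase of Rubisco, had deposited signals of 7576 in fnr1 Ws and 7378 in fnr1 Columbia, against 7768 in wild type Ws and 6132 in wild type Columbia. The root hair marker EXPA7 (AT1G12560) had 7.6 in fnr1 Ws and 1.0 in fnr1 Columbia, against 9.3 in wild type Ws and 1.3 in wild type Columbia. The anther marker A9 (AT5G07230) had 4.7 in fnr1 Ws and 0.53 in fnr1 Columbia, against 5.4 in wild type Ws and 0.72 in wild type Columbia, so RCA alone of the 3 was bright. These were the only measured ones of 9 leaf, 3 root and 3 anther markers. Of 4 guard cell markers 2 were measured. GC1 (AT1G22690) had 317 in fnr1 Ws and 330 in fnr1 Columbia, against 341 in wild type Ws and 246 in wild type Columbia. FAMA (AT3G24140) had 42.6 in fnr1 Ws and 41.1 in fnr1 Columbia, against 49.7 in wild type Ws and 42.9 in wild type Columbia. None of the 4 epidermis and 4 seed markers had a probe set listed.

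AT5G55450 was brighter in fnr1 than in wild type in both ecotypes and dimmer in Ws than in Columbia in both genotypes. Its deposited signal was 94.2 in fnr1 Ws and 182 in fnr1 Columbia, against 33.6 in wild type Ws and 42.8 in wild type Columbia. After scaling, these signals were 91.0 in fnr1 Ws and 174 in fnr1 Columbia, against 30.8 in wild type Ws and 51.4 in wild type Columbia. The fnr1 and wild type arrays, the contrast this gene was chosen on, did not overlap on either scale. How many of all probe sets part in this way was not counted, so this is a description only. The dimmer of the mutants was the Ws one. In RNA from whole tissue, fewer cells that express a gene and less of its RNA per cell cannot be told apart.

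The scaled signal of AT5G55450 was 2.95 times as high in fnr1 as in wild type in Ws and 3.39 times in Columbia. On the deposited scale the ratio was 2.80 in Ws and 4.25 in Columbia, so the dim wild type Columbia array moves the Columbia ratio and leaves its direction. The log2 differences were 1.40 in Ws and 1.66 in Columbia, with a fitted value over both of 1.53. Of the 13648 probe sets tested, 0.161% were called (limma adjusted p under 0.05) higher in fnr1 and 0.022% lower, and 0.11% were brighter in the mutant of each ecotype by at least 2-fold. The fitted genotype difference of AT5G55450 ranked 9 from the top. Its place was 10 in Ws alone and 22 in Columbia alone. These ranks describe the choice of the gene, and whether the genotype difference is unequal in the ecotypes was not tested, since each combination has 1 array.

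**Figure D1:**
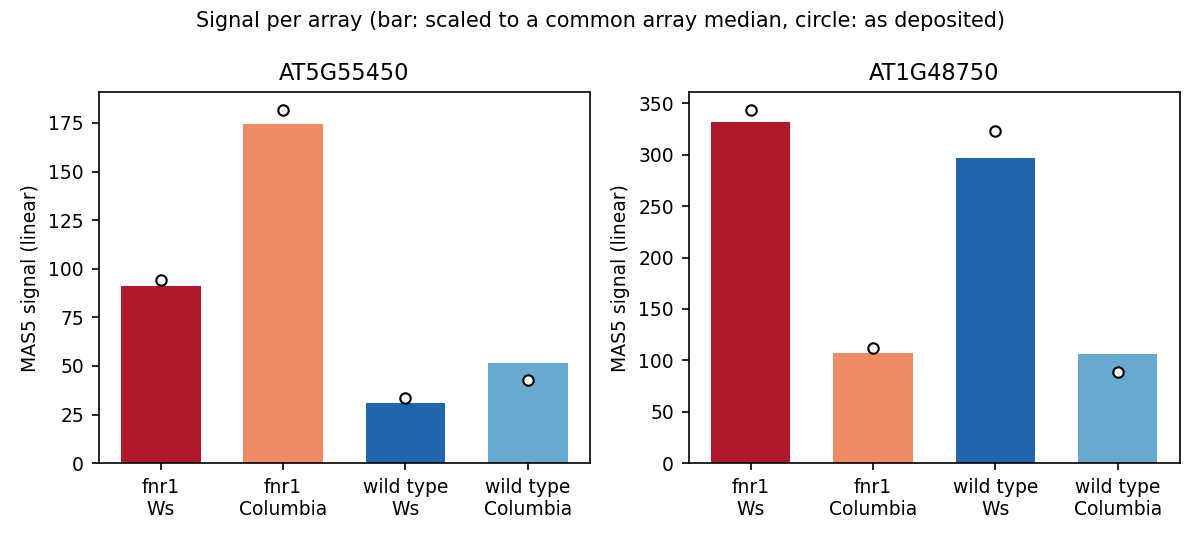
Signal of AT5G55450 (left) and AT1G48750 (right) on each of the 4 arrays, on a linear axis; bars are signals scaled to a common array median and circles are the deposited signals. AT5G55450 was highest in fnr1 Columbia at 174 and next in fnr1 Ws at 91.0, while AT1G48750 was at 332 and 296 in the Ws arrays and at 107 and 106 in the Columbia arrays.

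The ecotype comparison asked whether AT5G55450 also differed between Ws and Columbia. The gene was 1.92-fold lower in Ws than in Columbia among the fnr1 arrays and 1.67-fold lower among the wild type arrays, by scaled signals. The log2 differences were -0.90 in fnr1 and -0.64 in wild type. The fitted ecotype difference was -0.77 ± 0.19 (SE, 2 arrays against 2, 95% interval -1.16 to -0.38), and limma called it lower in Ws (adjusted p = 0.0139). Calls in that direction were common, with 5.25% of all tested probe sets called lower in Ws and 3.07% higher. The ecotype difference of AT5G55450 ranked 544 from the bottom of 13648.

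This call depended on the scale, on the filter and on the model. On the deposited scale, where the wild type signals were only 1.27-fold lower in Ws, the difference was -0.61 and limma's adjusted p was 0.414. With no filter on dim probe sets limma's adjusted p was 0.111, and with genotype left out of the model it was 0.431. Leaving genotype out kept the difference at -0.77 and put the genotype difference, on which the gene was chosen, into the residual. The SE then rose from 0.19 to 0.47, so this fit cannot show that the ecotype difference itself is unstable. A fit to 3 arrays has to leave genotype out, so it sets an ecotype with both genotypes against an ecotype with 1. Such a fit mixes the genotype difference into the ecotype difference and cannot show whether the call rests on a single array. The difference then was 0.06 without fnr1 Columbia and -0.07 without wild type Ws, and -1.47 without fnr1 Ws and -1.60 without wild type Columbia. The array carries Columbia sequence, and whether Ws bases differ under the probes was not tested.

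AT1G48750 had the other pattern, bright in Ws and nearly level between genotypes. Its deposited signal was 344 in fnr1 Ws and 323 in wild type Ws, against 112 in fnr1 Columbia and 88.2 in wild type Columbia. After scaling, the signals were 332 in fnr1 Ws and 296 in wild type Ws, against 107 in fnr1 Columbia and 106 in wild type Columbia. The Ws and Columbia arrays, the contrast this gene was chosen on, did not overlap on either scale. This too is a description, with no count of the probe sets that part in the same way.

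The scaled signal of AT1G48750 was 3.10 times as high in Ws as in Columbia among the fnr1 arrays and 2.80 times among wild type arrays. The log2 differences were 1.58 in fnr1 and 1.44 in wild type, with a fitted value of 1.51. At least 2-fold higher signals in Ws in both genotypes were seen for 0.491% of the tested probe sets. The fitted ecotype difference of AT1G48750 ranked 34 from the top, at place 31 among the fnr1 arrays and 59 among wild type arrays. As with AT5G55450, these places describe how the gene was chosen.

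The genotype comparison asked whether AT1G48750 differed between fnr1 and wild type. The ratio of scaled signals was 1.12 in Ws and 1.01 in Columbia, and the log2 differences were 0.16 in Ws and 0.01 in Columbia. The fitted genotype difference was 0.09 ± 0.16 (SE, 2 arrays against 2, 95% interval -0.25 to 0.43) and did not pass the test (limma adjusted p = 0.964). The interval leaves room for a small difference in either direction. It ranked 3918 from the top of 13648. On the deposited scale the fnr1 signal was 1.26 times the wild type signal in Columbia and 1.06 times in Ws, and the difference of 0.20 was not called. A fit without fnr1 Ws gave -0.70 and one without wild type Columbia gave -0.63, whereas one without fnr1 Columbia gave 0.88 and one without wild type Ws 0.81. Such fits leave ecotype out of the model and mix the ecotype difference into these values.

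The order of the 4 levels shows the contrast between the genes. AT5G55450 ran from fnr1 Columbia through fnr1 Ws and wild type Columbia to wild type Ws, with steps of 0.90, 0.76 and 0.64 on the log2 scale. The first and last of these, which lie between the ecotypes within a genotype, were larger than 0.26, the SD of a difference between 2 arrays in the fit. AT1G48750 ran from fnr1 Ws through wild type Ws and fnr1 Columbia to wild type Columbia, with steps of 0.16, 1.42 and 0.01. The first and last of these, which lie between the genotypes within an ecotype, were smaller than the SD of 0.23 for that gene. The middle step of each gene belongs to the contrast it was chosen on and is given as a description. With 1 array for each combination, these steps were not tested.

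**Figure D2:**
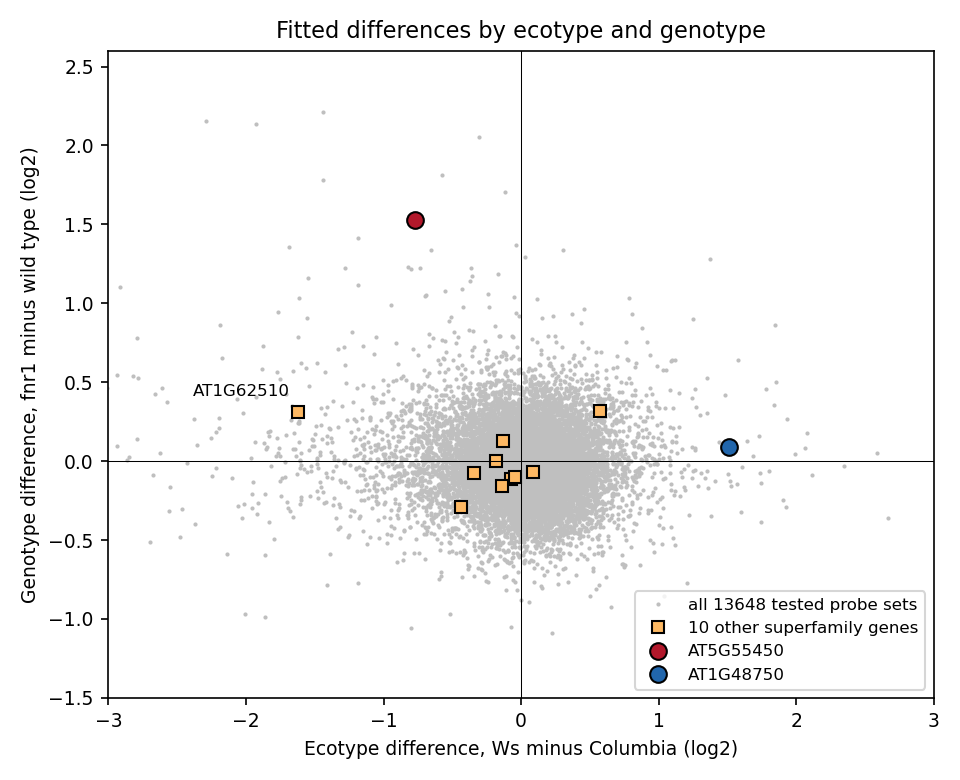
Fitted genotype difference (fnr1 minus wild type, log2, vertical) against fitted ecotype difference (Ws minus Columbia, log2, horizontal) for the 13648 tested probe sets in grey, of which 40 lie outside the axes; squares are the other 10 tested genes of the superfamily. AT5G55450 lies high and left of zero (1.53 and -0.77), and AT1G48750 lies far to the right near zero height (0.09 and 1.51).

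The family context comes from 85 genes listed in 6 groups of the superfamily, of which 35 had a probe set of their own and 12 were bright enough to test. Of the 10 tested genes other than the pair, none was called by genotype (limma, 0 also at an unadjusted p under 0.05, against 6.67% of all tested probe sets at that level and 0.183% called). Their genotype differences ran from -0.29 to 0.32 with a median of -0.07, beside a median of -0.03 over all tested probe sets. By ecotype, 1 of the 10 was called, lower in Ws, against 8.32% of all tested probe sets called in either direction. The median ecotype difference of the 10 was -0.14, beside 0.04 over all tested probe sets.

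The called relative was AT1G62510, listed with the EARLI1-like hybrid proline-rich proteins, which join a proline-rich stretch to a lipid transfer domain. Its deposited signal was 169 in fnr1 Ws and 126 in wild type Ws, against 476 in fnr1 Columbia and 345 in wild type Columbia. The Ws arrays lay below both Columbia arrays. Its ecotype difference was -1.62 ± 0.16 (SE, 2 arrays against 2, limma adjusted p = 2.26e-06), the reverse direction to AT1G48750. Its genotype difference was 0.31 and was not called (limma adjusted p = 0.789).

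Within the group of AT5G55450, the DIR1-like gene AT5G48490, a close relative of the systemic resistance protein DIR1, had deposited signals of 1143 in fnr1 Ws and 1015 in fnr1 Columbia, against 1183 in wild type Ws and 909 in wild type Columbia. Its genotype difference was -0.07 (limma adjusted p = 0.965) and its ecotype difference 0.09 (adjusted p = 0.807), neither of them called. The third measured gene of the group, AT3G52130, was at most 6.3 on any array and was not tested. Other type IV genes, DIR1 included, were not analysed here.

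Within the type II group of AT1G48750, AT3G18280 had deposited signals of 166 in fnr1 Ws and 193 in fnr1 Columbia, against 167 in wild type Ws and 180 in wild type Columbia. Its ecotype difference was -0.34 (limma adjusted p = 0.253), opposite in sign to that of AT1G48750, and its genotype difference was -0.08 (adjusted p = 0.965). The other 6 measured type II genes were too dim to test, and 3 of them had scaled signals below the added 5.78 on all arrays.

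Among the other groups, the type I gene LTP10 (AT5G01870) had 38.7 in fnr1 Ws and 21.6 in fnr1 Columbia, against 28.2 in wild type Ws and 14.6 in wild type Columbia. Its ecotype difference of 0.57 was not called (limma adjusted p = 0.194), nor was its genotype difference of 0.32 (adjusted p = 0.859). The GPI-anchored genes AT2G27130, AT1G62790 and AT2G44300, of the class that holds lipid transfer proteins at the outer face of the plasma membrane, had ecotype differences of -0.13, -0.44 and -0.08, none called. AT1G62790 had the lowest genotype difference of the 12 tested genes, at -0.29 (limma adjusted p = 0.848). The hybrid proline-rich genes AT2G45180, AT2G10940 and AT1G62500 had ecotype differences of -0.18, -0.14 and -0.04 and genotype differences of 0.00, -0.16 and -0.10, again none called.

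The remaining 23 measured relatives had deposited signals between 0.233 and 22.03 with a median of 4.14, and 1 of them, AT4G12490 (AZI3), passed 20 on an array. A further 3 probe sets are annotated to 2 genes at once, with at least 1 of them in the EARLI1-like list, and so belong to no single gene. The brightest of them had 42.3 in fnr1 Ws and 43.1 in wild type Ws, against 13.0 in fnr1 Columbia and 8.4 in wild type Columbia. It passed the filter through its Ws arrays and is given with no test, and the other two were at most 10.4 on any array and were too dim to test.

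**Figure D3:**
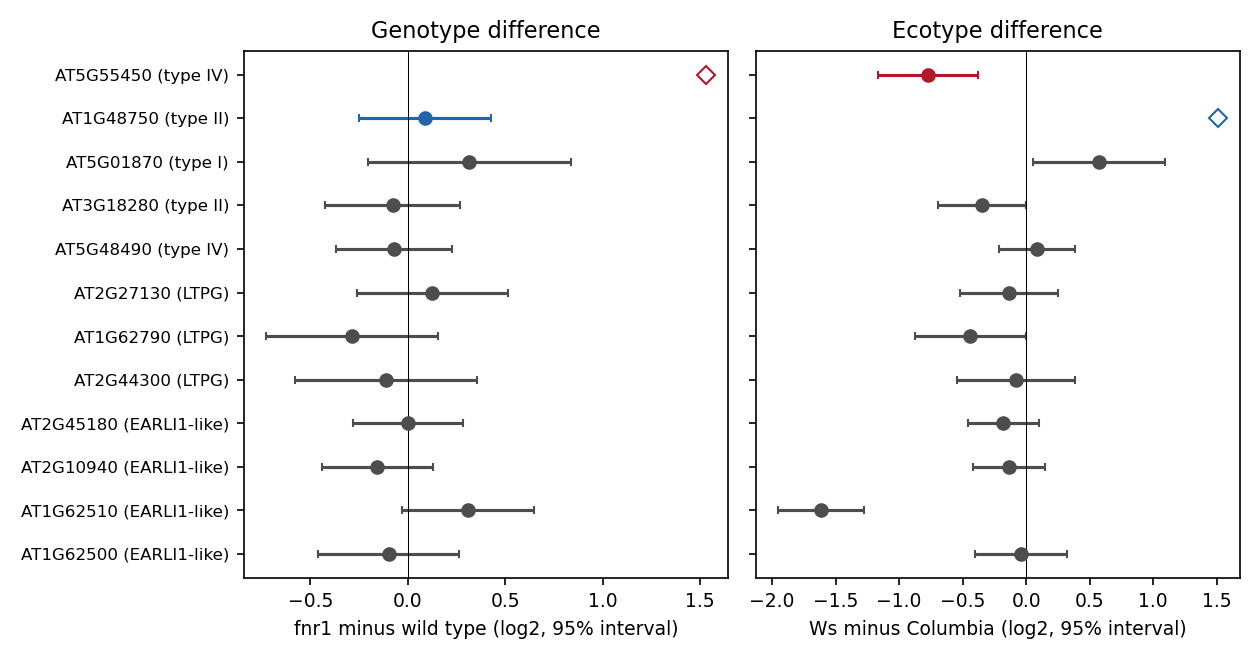
Fitted genotype (left) and ecotype (right) log2 differences of the 12 tested superfamily genes, with 95% intervals; open diamonds without an interval mark the contrasts that AT5G55450 and AT1G48750 were chosen on. By genotype the intervals of all other genes include 0; by ecotype AT5G55450 (-0.77) and AT1G62510 (-1.62) were called lower in Ws.

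Lists of cuticle and systemic resistance genes were thinly covered. Of 26 genes of cuticle lipid synthesis and export, 1 was measured: WSD1 (AT5G37300), a wax ester synthase. It had deposited signals of 9.5 in fnr1 Ws and 10.1 in wild type Ws, against 46.7 in fnr1 Columbia and 50.9 in wild type Columbia, and its log2 difference between Ws and Columbia was -1.76 in fnr1 and -2.16 in wild type. Both Ws values lay below the level of the filter on dim probe sets, which WSD1 passed through its Columbia arrays, so no test is given. Of 16 systemic acquired resistance genes, 1 was measured: SAG101 (AT5G14930), a partner of the immune regulator EDS1. SAG101 had 18.4 in fnr1 Ws and 22.5 in fnr1 Columbia, against 22.7 in wild type Ws and 8.9 in wild type Columbia. Its fitted genotype difference of 0.28 was not called (limma adjusted p = 0.92) and joins opposite signs, -0.18 in Ws and 0.73 in Columbia. The wild type Columbia value of SAG101 lay below the level of the filter on dim probe sets.

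The genes with the most similar pattern were sought among 7350 other tested probe sets with 1 annotated gene, by the root mean square distance between log2 values centred over the 4 arrays. For AT5G55450 they were AT3G60420 (distance 0.28), AT4G38550 (0.28), AT1G64360 (0.32), AT1G19960 (0.34) and AT1G11330 (0.37). AT3G60420 belongs to the phosphoglycerate mutase family and AT1G11330 encodes a lectin-type receptor kinase. All of the 5 were brighter in fnr1 than in wild type in both ecotypes, with fitted genotype differences of 1.81, 1.22, 1.09, 1.70 and 1.17. The 5 were chosen for their likeness on these arrays, so these differences describe the choice and are given with no test. Their ecotype differences were -0.57, -0.37, -0.43, -0.12 and -0.36, each smaller in size than the -0.77 of AT5G55450. Among wild type arrays the log2 difference between Ws and Columbia was -0.64 for AT5G55450 and -0.59 for AT1G64360. It was -0.02 for AT3G60420, -0.02 for AT4G38550, 0.06 for AT1G19960 and 0.26 for AT1G11330. Both wild type values of AT3G60420 lay below the level of the filter on dim probe sets.

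For AT1G48750 the closest genes were nearer, at distances of 0.10 to 0.14. They were AT3G28500, an acidic ribosomal protein gene, AT1G22550, a membrane transporter gene, the glycosyltransferase gene UGT87A2, AT2G15690, a pentatricopeptide repeat gene, and AT2G30540, a glutaredoxin gene. Their fitted ecotype differences were 1.5, 1.41, 1.65, 1.26 and 1.31, and their genotype differences lay between -0.12 and 0.13. Both Columbia values of AT2G30540 and the fnr1 Columbia value of AT1G22550 lay below the level of the filter on dim probe sets. UGT87A2, for example, had deposited signals of 201 in fnr1 Ws and 211 in wild type Ws, against 66.6 in fnr1 Columbia and 44.0 in wild type Columbia. These likenesses rest on the same 4 arrays and are a description with no p.

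**Figure D4:**
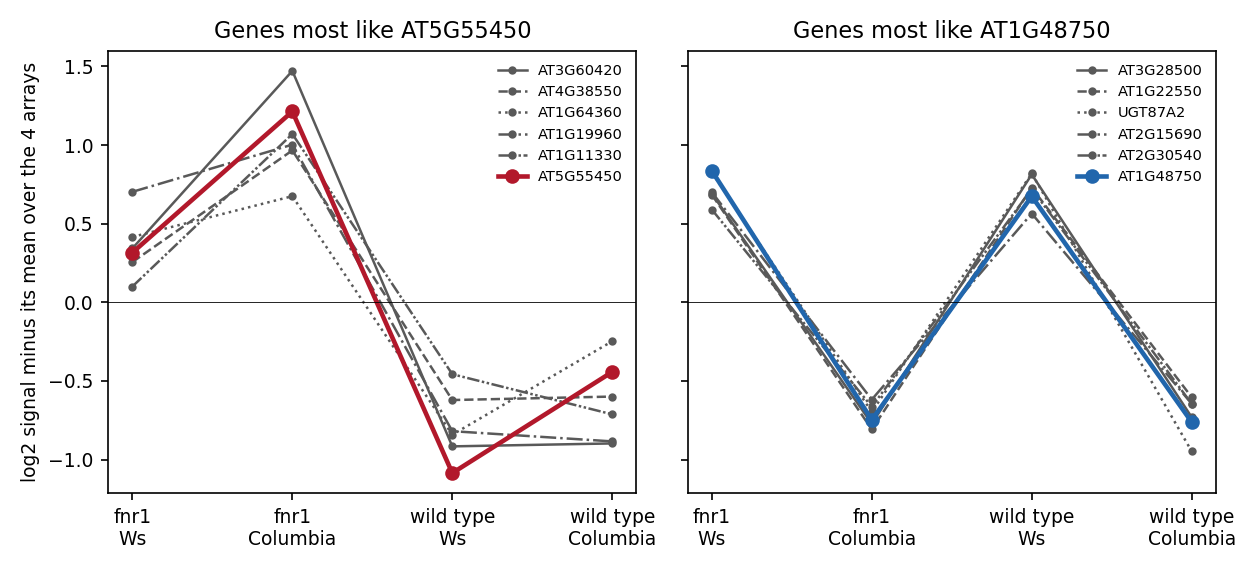
Log2 signal of AT5G55450 (left) and AT1G48750 (right), each minus its own mean over the 4 arrays, with the 5 genes of the most similar pattern in grey. The genes around AT5G55450 part by genotype and spread within each genotype, and those around AT1G48750 alternate by ecotype within a distance of 0.14.

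The chromosomal neighbours were looked at after the values of the pair were seen. Of the 20 protein-coding genes nearest to AT5G55450 in gene order (10 on each side), 8 had a probe set of their own and 5 were tested. By limma 0 of the 5 were called in either contrast, and 0 at an unadjusted p under 0.05, beside 0.183% of all tested probe sets called by genotype and 8.32% by ecotype. Their genotype differences ran from -0.38 to 0.23 and their ecotype differences from -0.38 to 0.21. Of the 20 nearest to AT1G48750, 11 were measured and 3 tested, of which 1 was called, higher in Ws, beside 3.07% of all tested probe sets called in that direction. With 3 genes tested, no share can be read from this count. The gene, AT1G48840, at place 7 after AT1G48750, had deposited signals of 65.7 in fnr1 Ws and 78.5 in wild type Ws against 19.7 in fnr1 Columbia and 33.6 in wild type Columbia (ecotype difference 1.12, limma adjusted p = 0.00352). AT1G48780 and AT1G48830, which lie between them, had ecotype differences of 0.36 and 0.13 and were not called.

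**Figure D5:**
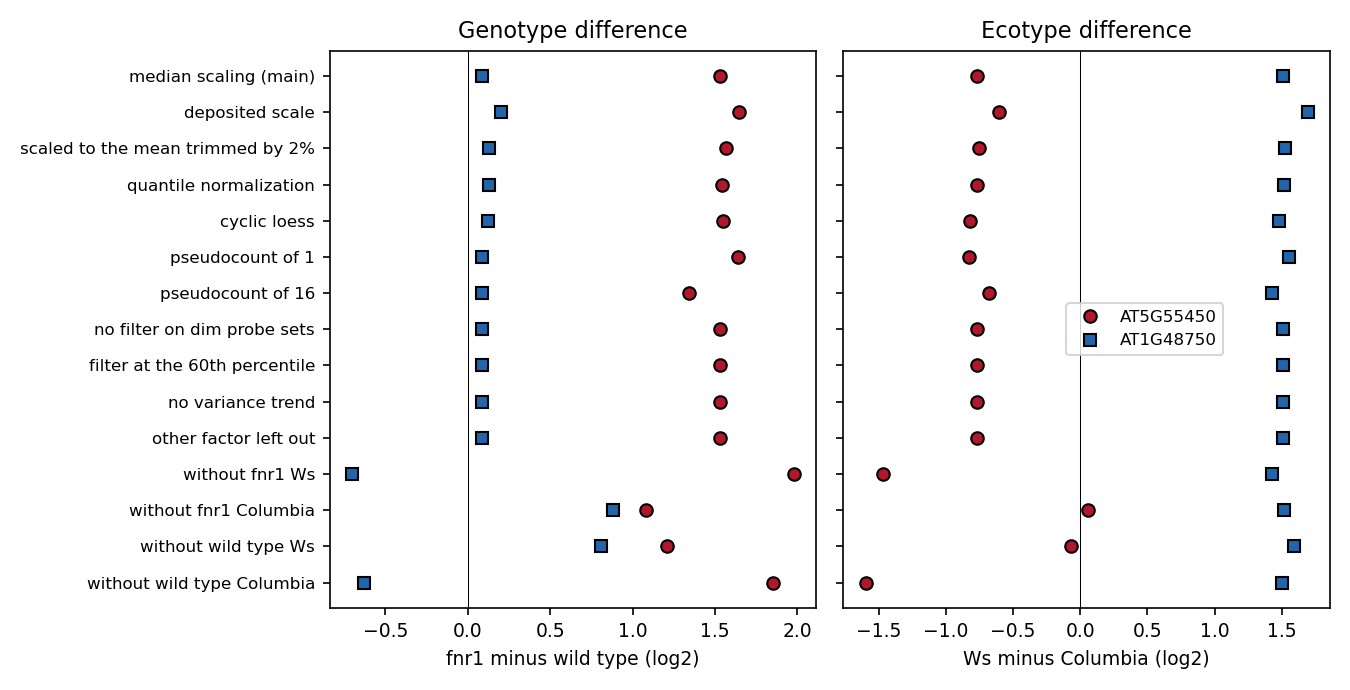
Fitted genotype (left) and ecotype (right) log2 differences of AT5G55450 (circles) and AT1G48750 (squares) under each processing setting, one row a setting, with fits to 3 arrays in the bottom 4 rows. The ecotype difference of AT1G48750 stays between 1.43 and 1.69 and the genotype difference of AT5G55450 between 1.08 and 1.98. The other contrast of each gene crosses 0 only in fits to 3 arrays, which mix the left-out factor into it.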

How the data were processed

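For each probe set the authors deposited an intensity per array on a linear scale. MAS5 was used for it according to the labels and per the submitters' processing notes. Its version and scaling target are not given in the sources used here. Of 22810 probe sets, the 64 control ones were left out. Each array was scaled to the mean of the 4 array medians, 5.78 was added as the pseudocount, which is the 25th percentile of the scaled signals, and log2 was taken. The 13648 probe sets at or above the 40th percentile of mean log2 signal, both genes among them, entered the tests, which used limma (3.58.1, R 4.3.3). The model had ecotype and genotype as additive terms and a variance trend, with 2-sided tests and Benjamini-Hochberg adjustment at 0.05 over all tested probe sets.

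The model leaves 1 residual degree of freedom, and limma added an estimated 15.7 prior degrees of freedom, so each SE rests mostly on other probe sets. Ecotypes serve as the replicates of the genotype comparison and genotypes as those of the ecotype comparison. Nothing says that arrays came from separate cultures, so the p-values cover the spread among the 4 arrays alone, which may be technical, and the number of arrays limits the precision.

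Of 14016 annotated probe sets 503 had several genes and 13513 had 1. The TAIR10.1 gene table, used for names and gene order only, held 13436 of these single genes, and 77 kept their annotated symbol. A gene was represented by its brightest probe set. Both genes, the superfamily lists and the other lists were chosen with earlier results of these data known, and the lists are hand-written, since the planned search of gene descriptions found no gene in the table used here. Named genes were the pair, called relatives, the brightest of each group, the 5 most similar patterns and the list members with the smallest p; other tested relatives and the neighbours were named after their values were seen. The planned choice of relatives by protein identity was not made here. The procedure was tested on simulated data. Alternatives changed the scaling, pseudocount, filter, variance trend, model and arrays used.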

Additional observations from a re-analysis of the deposited data

How the results depend on the processing

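Fits to 3 arrays have to leave out the other factor, so they mix it into the difference. They cannot show whether a result rests on a single array. Of the 14 alternatives, those with all 4 arrays gave an ecotype difference of AT5G55450 (-0.77) between -0.83 and -0.61. That difference stayed called with trimmed-mean, quantile and cyclic loess scaling and with pseudocounts of 1 and 16. The same held with a filter at the 60th percentile and with no variance trend. It was no longer called on the deposited scale (-0.61), with no filter (-0.77, more probe sets tested) and with genotype left out of the model (-0.77, genotype difference in the residual). With an array left out it ran from -1.60 to 0.058, above 0 without fnr1 Columbia. The genotype difference of AT1G48750 (0.09) lay between 0.08 and 0.20 with all 4 arrays and was called under none of these settings. It ran from -0.70 to 0.88 with an array left out, below 0 without fnr1 Ws (-0.70) and without wild type Columbia (-0.63). The genotype difference of AT5G55450 was 1.35 with a pseudocount of 16 and ran from 1.08 to 1.98 with an array left out. The ecotype difference of AT1G48750 was 1.69 on the deposited scale. The relatives called by genotype numbered 0 under every alternative with all 4 arrays. With no filter and with ecotype left out of the model, 0 of all probe sets were called by genotype, so the count of relatives could not differ there. The relatives called by ecotype, AT5G55450 counted in, were 2, and 1 on the deposited scale, with no filter and with genotype left out of the model. AT1G62510 was called by ecotype under every alternative with all 4 arrays, and its difference ran from -1.86 to -1.38 with an array left out. Over all probe sets, calls by genotype (25) ran from 0 to 35 and calls by ecotype (1136) from 368 to 1219; of the 1136, 63.1% were lower in Ws, against 54.1% on the deposited scale, 77.7% with no filter and 69.0% with cyclic loess. The labels carry no replicate numbers; the additive model already sets each comparison within the levels of the other factor.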
